A study of Homo sapiens with 8 samples.

Results

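Coding m6A peaks in long exons are the peaks that the deposited annotation places in coding sequence, in an exon of 400 nt or more. N6-methyladenosine (m6A) peaks were chosen by these 2 annotation entries alone, without any score, and 13579 of the 37501 listed peaks qualified. They comprised 4483 of 13307 peaks under UV, 3570 of 9803 under heat shock, 3505 of 9111 under HGF and 2021 of 5280 under IFNg. They lay in 3496 exons of 2963 gene models, out of 19965 coding gene models in the table. Of all coding peaks they made up 88.8% under UV (95% interval 87.9 to 89.6), 91.2% under heat shock (90.3 to 92.1), 89.1% under HGF (88.1 to 90.1) and 81.8% under IFNg (80.2 to 83.3).

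The cells were labelled HepG2, a line established from a human liver carcinoma, and none of the groups was left untreated. UV-treated cells received 0.04 J/cm2 and recovered for 4 h. Heat-shocked cells were kept at 43 °C for 30 min, and the labels leave it unclear whether the recovery applied to them too. The other cultures were kept overnight with 10 ng/ml of HGF (hepatocyte growth factor, which binds the receptor MET) or with 200 ng/ml of IFNg (interferon gamma). Each treatment had 1 library of RNA fragments precipitated with an anti-m6A antibody and 1 library of the input RNA. There are therefore no replicates, and no p-value is given. Intervals are exact binomial (Clopper-Pearson) 95% intervals and cover counting error only. The depth of the libraries is unknown, since the table holds no read counts.

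Most hepatocyte marker genes ranked low in the deposited expression, against the HepG2 label. Expression is a rank among 25918 gene models, given here as a percentile, and models without signal share a floor, at percentile 45.5 under UV, 32.7 under heat shock, 20.4 under HGF and 18.4 under IFNg. Of 9 hepatocyte marker genes, 7 were at the treatment's own floor under UV, 4 under heat shock, 2 under HGF and 1 under IFNg. Read against the highest floor, that of UV, 7, 6, 9 and 8 were at or under it. ALB, which encodes albumin, ranked at percentile 45.5 under UV, 57.6 under heat shock, 24.9 under HGF and 22.3 under IFNg. TTR, for the plasma carrier transthyretin, ranked at 76.1, 71.5, 43.0 and 42.0, the highest of the 9 in every treatment except IFNg. AFP, APOA1, APOB and FGB were at or under the UV floor in every treatment. Markers of other cell types differed among themselves. VIM, which encodes vimentin, ranked between 99.7 and 99.8. The collagen gene COL1A1 ranked at 64.7, 60.7, 83.6 and 80.9 in the same order of treatments, and COL3A1 at 66.1, 61.0, 58.2 and 65.4. PECAM1 ranked at 45.5, 32.7, 46.6 and 54.4, and PTPRC at 45.5, 33.2, 26.5 and 35.1. The cells are therefore called the cells labelled HepG2 below. In such bulk RNA, fewer cells of a type and less RNA per cell cannot be told apart.

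m6A is placed on nuclear RNA by a methyltransferase built around METTL3 and METTL14, in sequences that usually contain GGAC or a close relative, and it is read by YTH-domain proteins that affect mRNA decay and translation. Most exons of human genes are short, and the exon junction complex that splicing deposits near exon ends is known to limit methylation close to junctions. Methylation in coding sequence is known to occur largely in unusually long internal exons and in last exons.

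Sequences at shared peaks that could be matched to a transcript show what such a site can look like. The deposited table has no sequence, and its genome build was not given in the sources used here. Gene models were therefore matched to GENCODE 29 transcripts (GRCh38) only where chromosome, strand and the length of the genomic span were identical. The number and length of every peak-bearing exon also had to be identical, while the location on the chromosome was not compared. Of 685 models matched, 591 had the same gene symbol as the transcript. The matching tied 1495 members (11.01%) in 359 exons of 304 gene models to a sequence. The matched members had a median exon length of 1820 nt, against 1585 nt for all members. Their median scores were 4.00 under UV, 3.62 under heat shock, 3.23 under HGF and 3.07 under IFNg, against 4.10, 3.71, 3.35 and 3.08 for all members. The score is the authors' enrichment score, of which neither the formula nor the log base is given in the sources used here, and no listed peak scored under 2. The 7 windows below are each of 101 nt, centred on the middle of a site. They are from the matched sites listed in all 4 treatments, and their lowest score rank was among the highest of those matched. These lowest ranks ran from 67.7 (MTF1) to 85.8 (FGD6), below those of the highest-ranking shared sites named later. GGAC is in capitals.
FGD6, exon 2 of 2425 nt, chr12:95209888-95209988, minus strand: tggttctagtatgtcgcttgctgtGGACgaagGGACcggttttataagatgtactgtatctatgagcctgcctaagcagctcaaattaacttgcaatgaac
SETD5, exon 19 of 471 nt, chr3:9470641-9470741, plus strand: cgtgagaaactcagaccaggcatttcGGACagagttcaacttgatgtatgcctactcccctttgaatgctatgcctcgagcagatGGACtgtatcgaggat
PTPN13, exon 7 of 561 nt, chr4:86701514-86701614, plus strand: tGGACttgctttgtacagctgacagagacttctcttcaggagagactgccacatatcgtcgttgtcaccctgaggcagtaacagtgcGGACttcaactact
SH3D19, exon 7 of 1026 nt, chr4:151175074-151175174, minus strand: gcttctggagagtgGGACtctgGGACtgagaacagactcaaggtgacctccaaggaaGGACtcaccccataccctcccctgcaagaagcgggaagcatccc
C5orf22, exon 4 of 430 nt, chr5:31538431-31538531, plus strand: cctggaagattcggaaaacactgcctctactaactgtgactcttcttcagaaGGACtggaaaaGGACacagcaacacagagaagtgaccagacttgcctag
KLF11, exon 3 of 946 nt, chr2:10047860-10047960, plus strand: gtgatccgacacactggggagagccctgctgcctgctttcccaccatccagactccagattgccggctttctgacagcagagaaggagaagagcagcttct
MTF1, exon 2 of 459 nt, chr1:37857460-37857560, minus strand: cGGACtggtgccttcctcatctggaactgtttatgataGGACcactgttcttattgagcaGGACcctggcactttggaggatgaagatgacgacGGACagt

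Of these 7 windows, the one in KLF11, which encodes a Krüppel-like transcription factor, was without GGAC. The window in MTF1, the metal-responsive transcription factor, held 4 copies, that in SH3D19 held 3, and the remaining 4 windows held 2 copies each. PTPN13, which encodes a tyrosine phosphatase, had both copies followed by T. The 4 treatments placed the PTPN13 peak at transcript positions 1035 (UV), 1019 (heat shock), 1019 (HGF) and 1023 (IFNg). The MTF1 peak lay at positions 292, 292, 282 and 288 in the same order of treatments. SETD5, which encodes a SET-domain protein, was less tight, at 3424, 3359, 3443 and 3321. Its printed window is centred on position 3392 and does not reach the HGF and IFNg positions. Across 74 matched sites that were listed in all 4 treatments and could be printed, 53 held GGAC in the window and 25 held it more than once.

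GGAC was found in more windows around long-exon coding peaks than around coding bases at large. It was in 324 of 483 windows under UV (67.1%, interval 62.7 to 71.3), 254 of 382 under heat shock (66.5%, 61.5 to 71.2), 244 of 402 under HGF (60.7%, 55.7 to 65.5) and 150 of 228 under IFNg (65.8%, 59.2 to 71.9). Of all 101-nt windows centred on coding bases of long exons in the same transcripts, 38.2% held it. GGACT, which is counted within GGAC too, was in 25.4% to 28.5% of peak windows and in 10.4% of all such windows. GTCC, the letters of GGAC on the other strand, was in 18.9% to 23.6% of peak windows and in 29.8% of all windows. The related words GAAC and AGAC were in 38.3% to 44.3% and 42.7% to 50.4% of peak windows, against 30.6% and 34.6% of all windows. AAAC was in 25.9% to 32.6% of peak windows, against 30.5%. All words were sought on the strand of the transcript, with the reverse strand represented by GTCC. A match is a description of the letters, not a mapped modified base.

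GGAC was denser within 60 nt of the deposited peak position than farther away. Within 60 nt of the peak it occurred 10.2 times per kb under UV, 10.2 under heat shock, 8.60 under HGF and 9.80 under IFNg. Between 200 and 400 nt away it occurred 4.53, 4.58, 4.06 and 4.72 times per kb. The profiles of the 4 treatments ran together, and the reverse letters dipped at the peak, with 2.49 to 2.74 occurrences per kb near it and 3.44 to 3.77 far from it. Sites shared by all treatments held GGAC in 70.4% to 74.6% of their peak windows. Sites listed under HGF only held it in 34 of 71 windows (47.9%, interval 35.9 to 60.1) and those listed under UV only in 78 of 113 (69.0%, 59.6 to 77.4). For heat shock only it was 21 of 35 (60%, 42.1 to 76.1) and for IFNg only 14 of 28 (50%, 30.6 to 69.4).

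**Figure D1:**
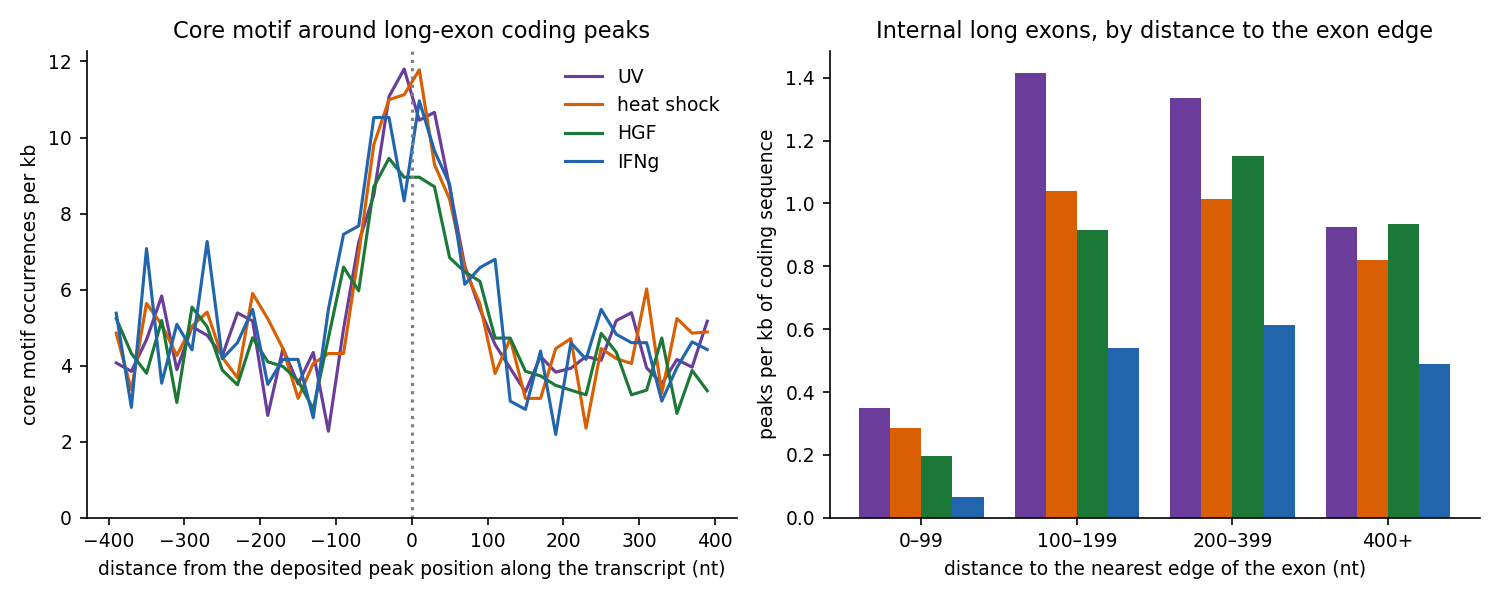
Left, occurrences per kb of the core motif (the 4-letter word described in the text) against the distance in nt from the peak position, in 20-nt bins, for matched long-exon coding peaks. Right, peaks per kb of coding sequence in internal long exons against the distance to the nearest exon edge, 1 bar per treatment in the colours of the left panel. The motif rises within about 100 nt of the peak in every treatment, and the bars are lowest within 100 nt of either exon edge.

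Base composition differed between sites listed after different treatments. The median GC content of the windows was 61.4% at 113 sites listed under UV only, 57.4% at 35 under heat shock only, 51.5% at 71 under HGF only and 49.0% at 28 under IFNg only. It was 53.0% at 125 sites listed in all 4 treatments, and 60.9% both at 82 sites listed under UV and heat shock only and at 22 listed under HGF and IFNg only. Across those 125 shared sites, the score rank under UV and heat shock minus that under HGF and IFNg had a Spearman rho of -0.23 with GC content. For the rank under UV less that under heat shock rho was 0.10, and for the rank under HGF less that under IFNg it was -0.21. These points share their libraries, and whether base composition has a part in which sites were listed was not tested.

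Coding peaks were far denser in long exons than in short ones. In the matched gene models, long exons held 40.4% of the coding bases examined, leaving out bases within 200 nt of the transcript start or the stop codon, for which the table has other labels. Long exons carried 0.890 peaks per kb of coding sequence under UV, 0.705 under heat shock, 0.738 under HGF and 0.416 under IFNg. Shorter exons carried 0.0703, 0.0389, 0.0565 and 0.0364 peaks per kb. The change with exon length began below the limit of 400 nt. Exons of 200 to below 300 nt had 0.0375 to 0.0874 peaks per kb over the treatments, and exons of 300 to below 400 nt had 0.132 to 0.607. Exons of 400 to below 1000 nt had 0.968 peaks per kb under UV, 0.672 under heat shock, 0.625 under HGF and 0.376 under IFNg. Exons of 1000 to below 3000 nt had 0.982, 0.799, 0.839 and 0.422 in the same order, and those of 3000 nt and above had 0.731, 0.631, 0.721 and 0.442. The longest class was thus below the 1000 to 3000 nt class under UV, heat shock and HGF and slightly above it under IFNg.

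**Figure D2:**
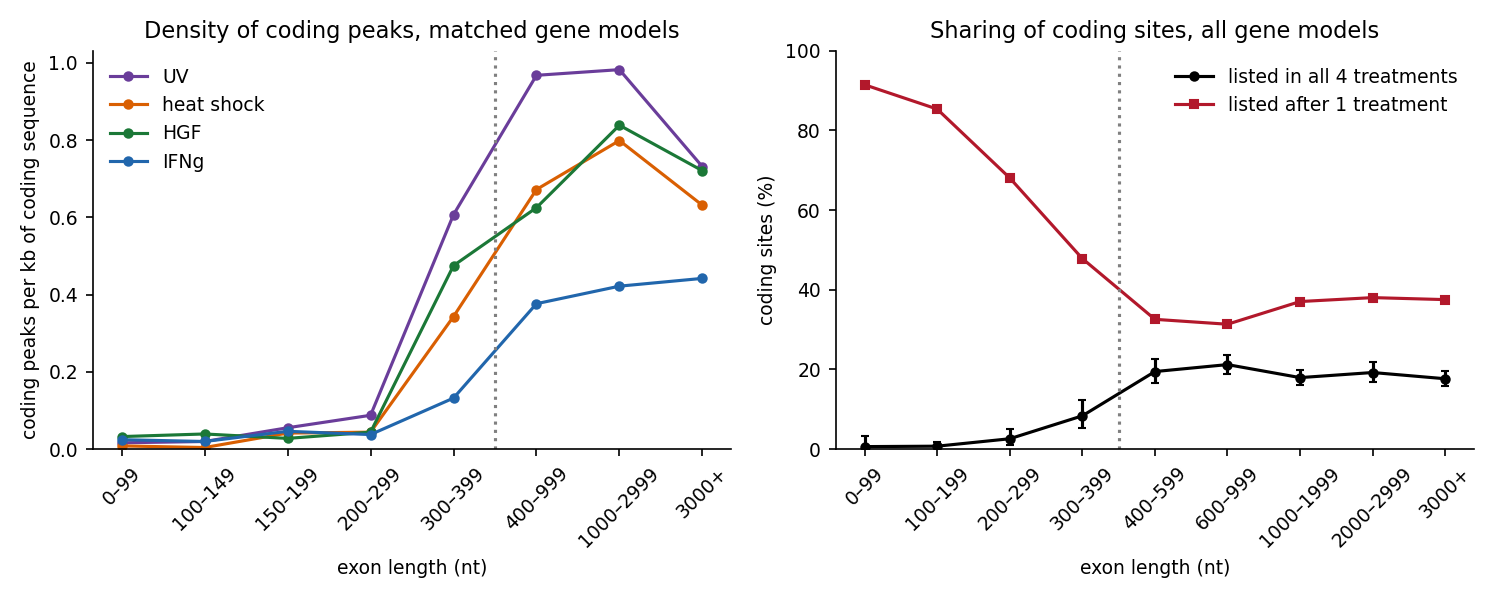
Left, coding peaks per kb of coding sequence against exon length in nt for the matched gene models, 1 line per treatment. Right, percentage of coding sites listed in all 4 treatments (black, with exact 95% intervals) or after 1 treatment (red) against exon length for all gene models. The dotted line marks 400 nt; both panels change most between 200 and 600 nt.

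The edges of long exons were poor in peaks. In internal long exons, the 100 nt next to an exon edge made up 16.9% of the coding bases. They held 16 of 275 peaks under UV (5.82%, interval 3.36 to 9.28), 13 of 221 under heat shock (5.88%, 3.17 to 9.85), 9 of 233 under HGF (3.86%, 1.78 to 7.21) and 3 of 124 under IFNg (2.42%, 0.502 to 6.91). Density there was 0.350, 0.284, 0.197 and 0.0656 peaks per kb, against 1.41, 1.04, 0.915 and 0.541 in the next 100 nt. In internal exons shorter than 400 nt, 95.6% of coding bases lay within 100 nt of an edge. Their few bases at 100 nt or more from both edges had 0.520 peaks per kb under UV, 0.260 under heat shock, 0.405 under HGF and 0.144 under IFNg, against 0.0492, 0.0279, 0.0412 and 0.0319 nearer the edge. How the authors placed reads that cross exon junctions is not given in the sources used here.

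Most matched members were in internal exons. These held 275 of 481 under UV (57.2%), 221 of 381 under heat shock (58.0%), 233 of 399 under HGF (58.4%) and 124 of 225 under IFNg (55.1%), and 50.2% of the long-exon coding bases. Last exons held 28.3% to 30.2% of the peaks and 33.1% of the bases, and first exons 9.27% to 12.7% of the peaks and 14.5% of the bases. Along the coding sequence, the first 10% had 0.734 peaks per kb under UV and 0.302 under IFNg. The last 10%, outside the stop-codon window, had 1.10 and 0.792. In the whole table, the median exon number of the members was 4 in every treatment. Exon 1 held 14.1% of members under UV, 13.0% under heat shock, 10.9% under HGF and 11.7% under IFNg. Exons numbered 11 or more held 22.1% under UV, 22.9% under heat shock, 23.1% under HGF and 22.1% under IFNg.

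The limit of 400 nt cut through a continuous range. Exons of 390 to below 400 nt held 78 coding peaks, with median scores of 4.11 under UV, 4.27 under heat shock, 4.26 under HGF and 3.08 under IFNg. Exons of 400 to below 410 nt held 57, with medians of 4.00, 3.48, 2.86 and 2.98.

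Peaks of a gene model within 100 nt of each other were joined, which gave 6109 long-exon coding sites. Sites in long exons recurred between treatments much more often than coding sites in short exons. In long exons 1153 sites (18.9%, interval 17.9 to 19.9) were listed in all 4 treatments, where 16.5% of all sites of the table were. In short exons 37 of 1293 coding sites were (2.86%, 2.02 to 3.92). The share rose with exon length from 0.714% from 100 to below 200 nt to 2.58% from there to 300 nt, 8.33% from 300 to below 400 nt and 19.5% from 400 to below 600 nt, and was 17.6% at 3000 nt and above. Of long-exon sites, 1158 were listed in 3 treatments, 1617 in 2 and 2181 (35.7%) after 1 treatment. The positions of a site listed in all 4 treatments spanned a median of 26 nt (quartiles 15 and 44). Coding peaks in short exons also scored lower, as given below, and the part of score in the contrast by exon length was not tested.

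Of the long-exon sites, 1047 (17.1%) were listed under UV only, 340 (5.57%) under heat shock only, 567 (9.28%) under HGF only and 227 (3.72%) under IFNg only. Over all sites of the table these shares were 21%, 5.07%, 9% and 5.22%. IFNg, with the fewest listed peaks, showed the sharpest contrast by exon length. Of its long-exon sites, 1786 of 2013 (88.7%, interval 87.3 to 90.1) were listed elsewhere too, against 88 of 449 (19.6%, 16.0 to 23.6) of its sites in short exons. Of IFNg windows in short exons, 10 of 29 held GGAC (34.5%, interval 17.9 to 54.3), against 150 of 228 in long exons. The other treatments' short-exon windows held it about as often as their long-exon windows or more often. The counts were 40 of 56 under UV (71.4%), 21 of 31 under heat shock (67.7%) and 31 of 45 under HGF (68.9%). Of all windows on coding bases of short exons, 35.6% held GGAC. With the same number of highest-scoring peaks per treatment (5280), the sites listed under UV only numbered 298 and those under IFNg only 547. The order of the treatments in these counts therefore turned with the number of peaks compared. Without IFNg, 33.4% of long-exon sites were listed in all 3 remaining treatments, an alternative chosen after the data were seen.

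UV sites in long exons carried a heat shock peak more often than an HGF or IFNg peak, as did UV sites of the whole table. A heat shock peak was present at 2889 of 4464 UV sites (64.7%), an HGF peak at 54.6% and an IFNg peak at 32.3%. Over all 13258 UV sites of the table the shares were 61.6%, 48.7% and 27.2%. The shares depend on the number of peaks listed: seen from IFNg, 71.6% of its 2013 sites had a UV peak, 70.0% a heat shock peak and 78.6% an HGF peak. Sites listed under UV and heat shock and nowhere else numbered 811 (13.3% of member sites, with 15.1% of all sites), those under HGF and IFNg 196 (3.21%, with 2.26%) and those under UV and HGF 348 (5.70%, with 5.30%). Scores at shared sites had a Spearman rho of 0.696 for the UV and heat shock pair (2889 sites) and 0.544 for that of HGF and IFNg (1582 sites). Across the other pairs rho ran from 0.312 to 0.495. These are descriptions across sites of the same transcripts, each treatment being 1 pair of libraries.

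**Figure D3:**
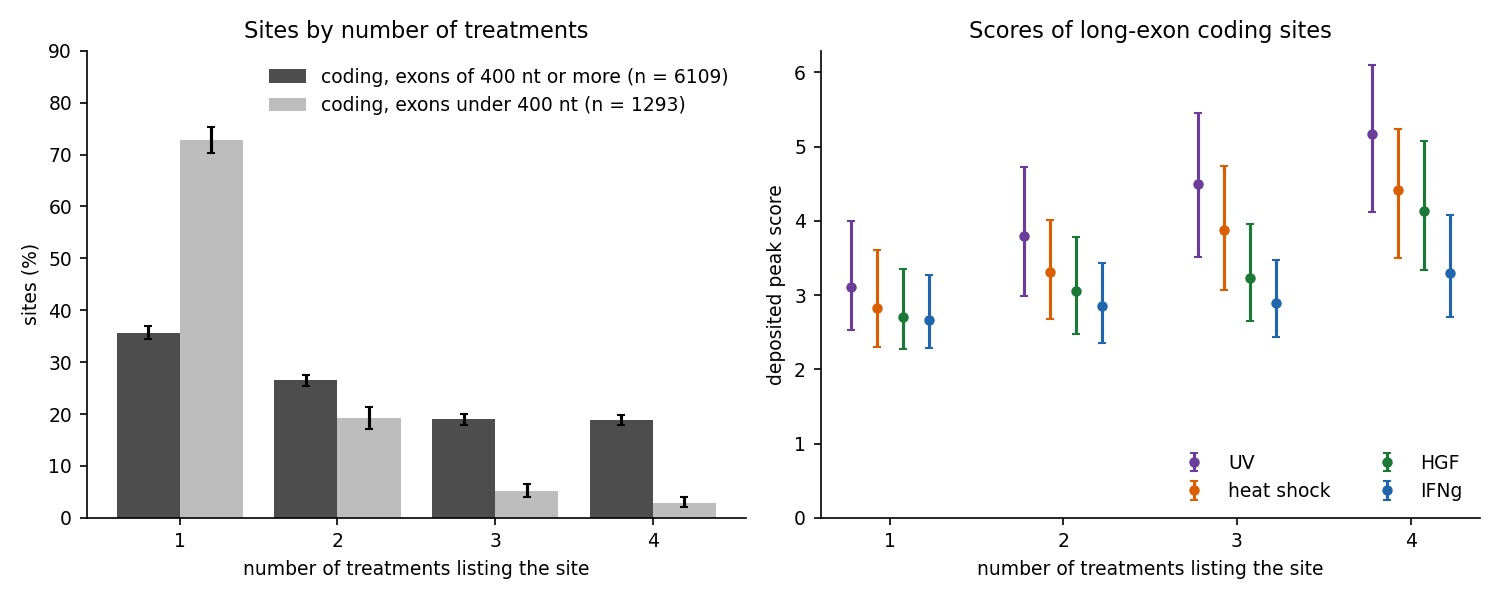
Left, percentage of coding sites by the number of treatments listing them, for exons of 400 nt or more and for shorter exons, with exact 95% intervals. Right, median deposited score of long-exon coding sites in each treatment by the number of treatments listing them; bars span the quartiles. Short-exon sites are mostly listed after 1 treatment, and the median score rises with the number of treatments, under UV from 3.11 to 5.16.

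Scores of members were higher than those of coding peaks in short exons. The median score was 4.10 under UV (interval 4.04 to 4.16), 3.71 under heat shock (3.66 to 3.76), 3.35 under HGF (3.29 to 3.41) and 3.08 under IFNg (3.03 to 3.13), with order-statistic 95% intervals. In short exons the medians were 3.34, 2.96, 2.55 and 2.43. All listed peaks had medians of 4.07, 3.72, 3.33 and 3.01. Among long-exon sites the median score rose with the number of treatments listing the site: from 3.11 to 5.16 under UV, from 2.82 to 4.41 under heat shock, from 2.70 to 4.14 under HGF and from 2.66 to 3.30 under IFNg.

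The sites that ranked high everywhere were in genes of varied function. A score rank is the percentile of a site's score among 2925 sites of the table listed in all 4 treatments. NUFIP2, which encodes an RNA-binding partner of FMRP, had scores of 9.31 under UV, 7.25 under heat shock, 7.09 under HGF and 5.89 under IFNg in exon 2 (1725 nt), with every rank at 98.8 or above. HSPA13, an HSP70 family member, had scores of 7.66, 6.87, 6.32 and 6.42 in exon 5 (3169 nt). AFF1, a transcription elongation scaffold, had 7.39, 6.94, 6.62 and 5.56, with peaks at positions 2595, 2595, 2589 and 2595. USP10, a deubiquitinase, had 8.21, 6.06, 5.98 and 6.65, with peaks between positions 1052 and 1053. PBRM1, a subunit of the PBAF chromatin remodelling complex, had 8.002, 6.03, 6.73 and 5.47 in exon 15 (643 nt). The remaining 5 of the 10 sites with the highest lowest rank were in MAGI3, ZFX, ABL2, ZSCAN29 and RIC8B. Their score ranks were all at 89.8 or above. Their gene models ranked between percentiles 60.9 and 91.9 in expression, so these sites were not limited to the highest-ranked mRNAs.

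Sites whose score rank stood apart under 1 treatment were mostly about as frequent among members as among all shared sites. Of 1152 member sites among the 2925, a score rank at least 25 points above that of every other treatment was found at 32 under UV (2.78%, with 3.93% of all shared sites), 38 under heat shock (3.30%, with 3.38%), 31 under HGF (2.69%, with 3.18%) and 84 under IFNg (7.29%, with 7.62%). A rank at least 25 points below was found at 39 under UV (3.39%, with 3.08%), 28 under heat shock (2.43%, with 2.91%), 42 under HGF (3.65%, with 3.69%) and 100 under IFNg (8.68%, with 7.9%). Only for ranks above the others under UV did the members' interval (1.91 to 3.90) lie under the share of all shared sites (3.93%). The margin was narrow and the interval covers counting error only, so this is not read as a trait of the members. The balance of gains and losses depended on how ranks were taken. With ranks over all listed peaks of a treatment, 29 member sites were above and 21 below under UV, 11 and 54 under heat shock, 33 and 37 under HGF, and 21 and 182 under IFNg. The heat shock balance thereby turned from more sites above to more below. The genes named next were chosen from ranks among shared sites. Gains and losses mean a rank above or below that of every other treatment, and no untreated cells were available for comparison.

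After IFNg, the largest gains were in ASXL1, a Polycomb-associated chromatin regulator, IRS2, an insulin receptor adaptor, and ZNF703. The ASXL1 site in exon 12 (4888 nt) had scores of 2.00 under UV, 2.50 under heat shock, 3.23 under HGF and 5.02 under IFNg, and its rank was 93.3 under IFNg against at most 21.7 elsewhere. The IRS2 site had scores of 3.33, 3.62, 3.44 and 4.43, with ranks of 10.1, 27.5, 27.5 and 83.7. The largest losses were in UBE3A, a ubiquitin ligase, SLC39A6, a zinc transporter, and DENND4A. The UBE3A site had scores of 6.19, 6.66, 6.12 and 2.05, so that IFNg stood at rank 1.57 and the others at 75.2 or above. The SLC39A6 site had scores of 8.21, 6.45, 5.12 and 2.09. DENND4A had 7.32, 5.72, 6.59 and 2.48.

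Under heat shock, the sites farthest above the other treatments in rank included 1 in METTL3, the catalytic subunit of the m6A methyltransferase itself. Its site in exon 3 (405 nt) had scores of 3.35 under UV, 4.91 under heat shock, 2.90 under HGF and 2.44 under IFNg, with ranks of 10.3, 66.9, 14.1 and 14.9. The METTL3 gene model ranked lower in expression under heat shock, at percentile 82.6, than under UV (89.9), HGF (86.9) or IFNg (88.7). QRICH1, a transcriptional regulator, had scores of 4.36, 5.77, 2.90 and 2.60, and the histamine receptor gene HRH1 had 4.50, 5.71, 2.19 and 2.73. Heat shock losses were led by CSRP2BP (6.21, 3.26, 5.59 and 4.52), EXTL2 (5.81, 3.05, 6.29 and 3.90) and TRAF3IP2 (6.06, 3.46, 5.45 and 4.39). Each loss stood at least 40 points of rank below the nearest other treatment.

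Under UV, CCDC88C stood farthest above the other treatments in rank, with scores of 6.41 under UV, 3.35 under heat shock, 3.20 under HGF and 2.84 under IFNg. It was followed by ATAD2B (5.97, 3.47, 2.58 and 2.55) and SNX19, a sorting nexin (6.05, 3.07, 3.12 and 2.76). UV losses were in WDR20 (2.66, 4.65, 5.89 and 4.43), PCF11, an mRNA 3′-end processing factor (4.23, 5.51, 5.02 and 4.55), and MGAT1, a Golgi glycosyltransferase (2.66, 4.38, 4.55 and 4.28). After HGF, the gains were in SLFN11 (3.67, 2.79, 5.01 and 2.50), CARD6 (3.43, 4.18, 6.24 and 2.33) and DNMBP (3.67, 2.37, 4.80 and 2.58). HGF losses were in the Polycomb gene BMI1 (6.56, 5.04, 2.57 and 4.28), TEX2 (5.97, 5.76, 2.73 and 3.80) and RASSF8 (5.74, 4.70, 2.48 and 3.72). Scores are compared here as ranks because their medians differ between treatments.

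Most long exons had 1 site, and several sites were more frequent in the longer ones. Of 3496 exons, 1371 (39.2%) held 2 or more sites, 572 held 3 or more and 145 held 5 or more. The share with 2 or more rose from 10.9% at 400 to below 600 nt to 67.7% at 5000 nt and above. The number of sites per kb of exon fell over the same range from 2.23 to 0.517. Exon length includes any untranslated part, and only exons with a site were counted. Neighbouring sites in an exon were a median of 362 nt apart (quartiles 260 and 536, 2613 pairs). Of the gene models, 2529 had 1 long exon with a site, 358 had 2, 60 had 3 and 12 had 4, with at most 6.

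AHNAK, which encodes a giant scaffold protein, had the most sites in an exon. Its exon 5 of 18173 nt held 28 sites, with 16 peaks under UV, 20 under heat shock, 13 under HGF and 13 under IFNg, and 9 sites were listed in all 4 treatments. At its highest-scoring UV site the scores were 4.17 under UV, 3.64 under heat shock, 3.65 under HGF and 2.85 under IFNg. Another shared site was placed at positions 8330, 8330, 8330 and 8331. MUC16, a membrane mucin, held 15 sites in an exon of 21693 nt, with 9 peaks under UV, 3 under heat shock, 12 under HGF and 5 under IFNg. PLEC1, for the cytolinker plectin, held 14 sites in exon 32 of 7243 nt, where the highest HGF score was 6.92 and the highest heat shock score 3.17. AHNAK2 held 12 in an exon of 17546 nt and had 10 peaks under UV, 4 under heat shock, 7 under HGF and 0 under IFNg. Its expression ranked at 72.9, 72.5, 79.6 and 71.8 in the same order. ANKRD11, a chromatin-associated ankyrin protein, and FAM44A each had 11 sites. AHNAK, AHNAK2 and MUC16 contain repeated coding units, and how reads matching several places were counted is not given in the sources used here.

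**Figure D4:**
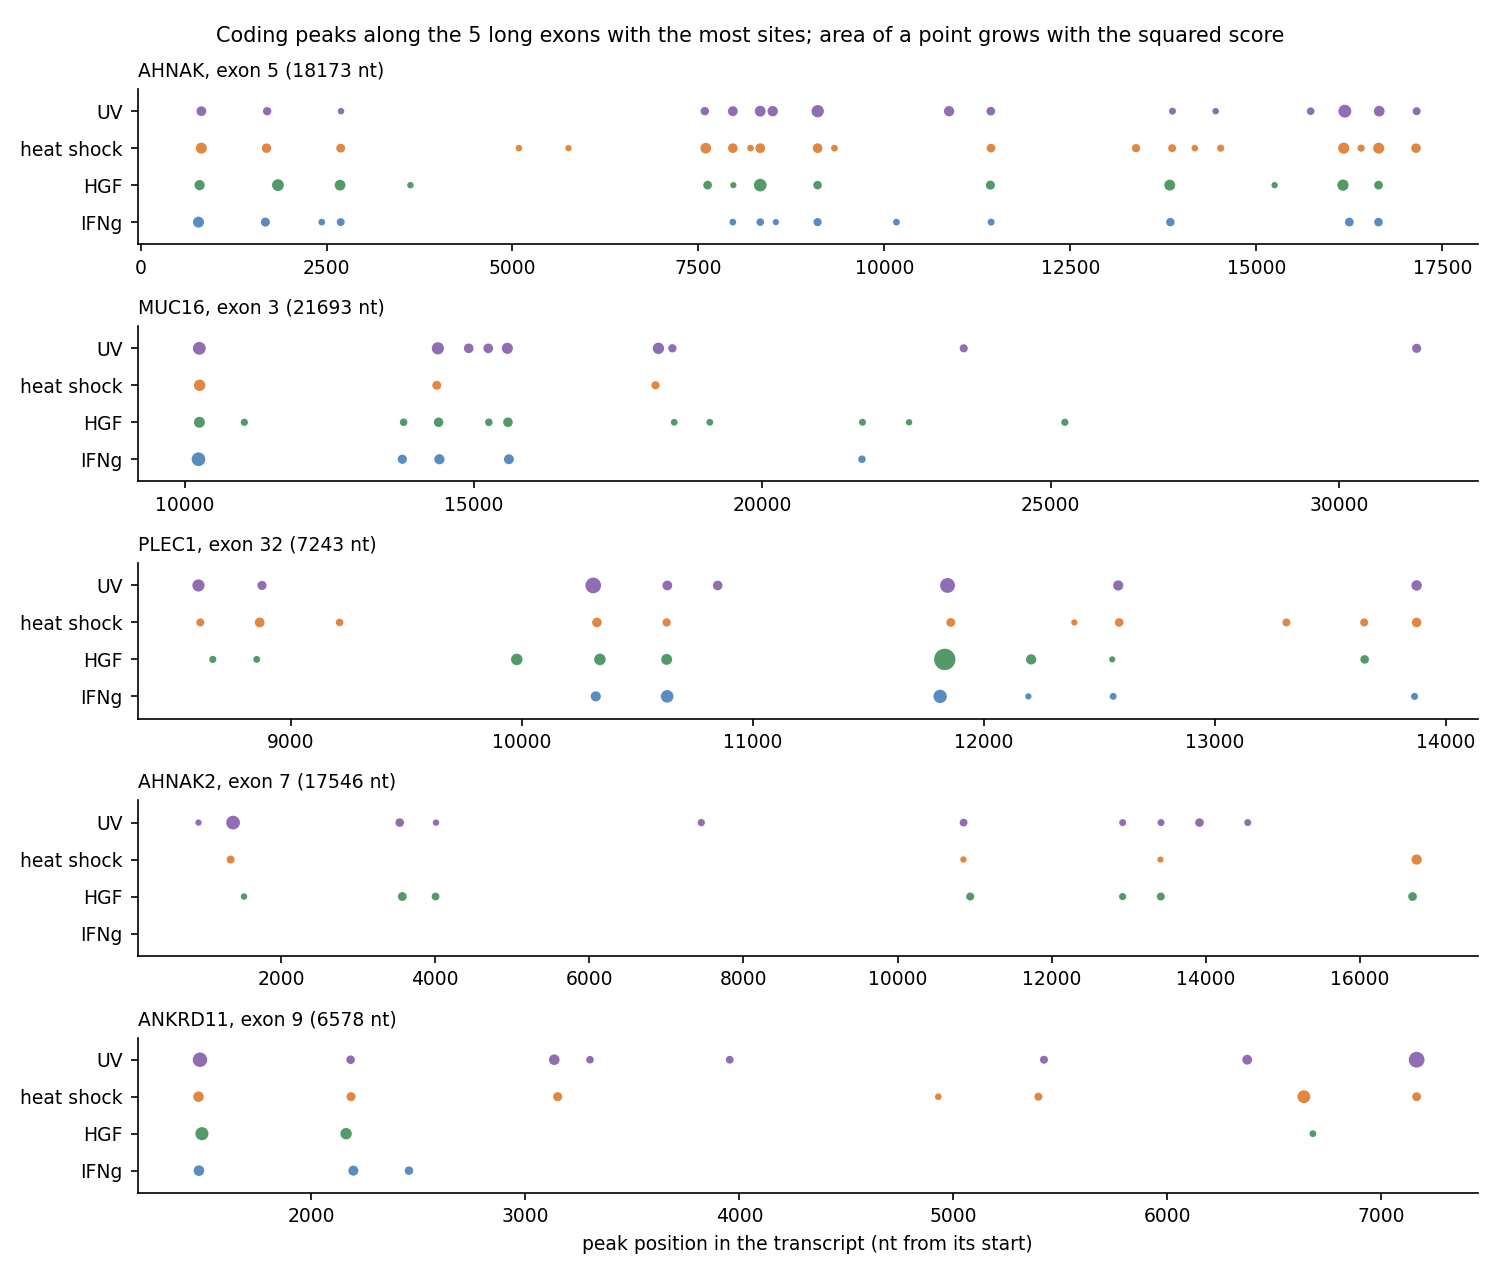
Positions in nt from the transcript start of the coding peaks along the 5 long exons with the most sites, 1 row per treatment. Each point is the highest-scoring peak of a site in that treatment, and its area grows with the square of its deposited score. Vertical stacks are sites listed in several treatments, as at 9 sites of AHNAK, and AHNAK2 has no IFNg point.

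Among the longest exons with a site in all 4 treatments, KIAA2018 held 7 sites in 13040 nt, while INO80D held 2 sites in 11813 nt. INO80D, a subunit of a chromatin remodeller, had a highest score of 7.95 under UV, 4.89 under heat shock, 5.85 under HGF and 3.52 under IFNg.

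Gene groups differed in how many of their genes carried a long-exon coding peak. The lists were chosen with earlier results of these data known, so their counts are descriptions. Over all coding gene models, 14.8% carried such a peak in any treatment and 4.7% a site listed in all 4. Gene models with a site ranked at median percentiles of 75.3 to 76.4 in expression, and all coding models at 58.0 to 58.7. Expression and exon length differ between the lists, and their part in these counts was not tested.

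Chromatin regulators stood at the top, with 45 of 53 genes carrying a peak and 38 a site listed in all 4 treatments. MLL2, a histone H3 lysine methyltransferase, had 18 sites in 6 long exons, 5 of them shared by all treatments. At its shared site in exon 48 (1141 nt) the scores were 6.09 under UV, 4.85 under heat shock, 5.97 under HGF and 4.64 under IFNg. The related MLL3 had 12 sites, MLL 10 and ASH1L 10. The list's median expression percentile was 86.7.

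The m6A machinery itself had listed peaks in long exons, in 14 of 17 genes, and 8 genes had a site in all 4 treatments. The list's median expression percentile was 87.1. RBM15, which recruits the methyltransferase, had 7 sites in its exon of 2946 nt, and none of them was listed in all 4. The cytoplasmic readers each carried shared sites in a long exon. YTHDF1 had 5 sites in exon 4 (1521 nt), and the scores at the site near position 965 were 4.46 under UV, 2.80 under heat shock, 3.59 under HGF and 3.91 under IFNg. YTHDF2 had scores of 5.12, 3.01, 4.30 and 2.99 at its shared site, and YTHDF3 had 7.51, 6.79, 4.76 and 4.68. The demethylase gene FTO had 4.43, 4.79, 4.37 and 2.29. ALKBH5, the other demethylase, had 2 sites, both under UV alone.

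Other lists of large nuclear or cytoskeletal proteins had high counts too. A peak was present in 24 of 31 mitosis and centrosome genes, 22 of 31 DNA repair genes, 25 of 40 genes of RNA processing and translation scaffolds and 13 of 27 genes of the nuclear pore and lamina. Sites in all 4 treatments were found in 8, 5, 14 and 8 of them. The lists' median expression percentiles were 87.6, 78.7, 92.4 and 91.6 in the same order. In the mitosis list, 23 genes had a peak under UV and 13 under IFNg, while among all gene models 2590 had one under UV and 1363 under IFNg. MKI67, the Ki-67 proliferation antigen, had 10 peaks under UV, 7 under heat shock, 7 under HGF and 0 under IFNg, with expression percentiles of 99.4, 99.1, 98.6 and 98.0. ASPM, a spindle protein, had 7, 5, 5 and 0. MSH6, a mismatch repair protein, had 7 sites in exon 4 (2545 nt), and its site near position 2955 had scores of 5.73, 5.39, 5.81 and 5.11. In the list of 40 signalling adaptors and feedback genes, 29 had a peak and 13 a shared site. That list's median expression percentile was 67.6.

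Zinc finger genes, whose finger arrays are often encoded in a single long exon, gave 251 of 575 genes with a peak and 70 with a shared site, at a median expression percentile of 57.5. ZFHX3 had 17 sites in 4 long exons, 7 of them in all 4 treatments. These genes share near-identical stretches, so reads may have been split between family members. The protocadherins, also built around a single long coding exon, gave 3 of 36 genes, with a median expression percentile of 32.7. Of the 48 secreted and membrane proteins listed as liver genes and large extracellular proteins, 4 had a peak, at a median expression percentile of 37.3. Heat shock and chaperone genes gave 8 of 25, at a median of 88.5. Of those, DNAJB1 had scores of 3.85 under UV, 3.17 under heat shock and 2.96 under HGF in exon 2 (581 nt), with no peak listed under IFNg. HSPA8 had scores of 5.18 under UV and 4.43 under heat shock.

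Immediate early and stress transcription factors had 14 of 37 genes with a peak and 3 with a site in all 4. The median expression percentile of this list was 78.4. EGR1 had a site with scores of 4.52 under UV and 2.18 under IFNg, and no long-exon coding peak under heat shock or HGF. Its expression ranked at 76.8 under UV, 52.6 under heat shock, 95.6 under HGF and 98.6 under IFNg. FOS had a peak under UV only, with a score of 3.88, and its expression ranked at 66.7 there and at 91.3 under IFNg. The median score of members was higher under UV than under IFNg, and FOS had a score under UV alone. These scores can therefore not be set against expression, and the part of expression in these listings was not tested.

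Interferon and innate immune genes had 24 of 38 genes with a peak and 11 with a shared site, at median expression percentile 63.8. Several carried a listed peak also in treatments where they ranked far lower than under IFNg. PARP14, an interferon-induced ADP-ribosyltransferase, had a site with scores of 5.40 under UV, 4.56 under heat shock, 3.20 under HGF and 3.12 under IFNg. Its expression ranked at 72.2, 76.7, 67.8 and 95.6. DTX3L, its ubiquitin ligase partner, had scores of 6.45, 4.98, 3.27 and 4.48, with expression at 66.5, 73.0, 61.1 and 93.4. APOL6 had 5.17, 3.59, 5.06 and 4.07, with expression at 47.7, 56.8, 45.5 and 91.5.

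Sites listed under IFNg only lay in genes that ranked higher under IFNg more often than the other treatments' own sites lay in genes ranking higher there. Of 194 gene models with such a site, 11 (5.67%, interval 2.86 to 9.92) ranked at least 10 percentile points above every other treatment under IFNg, with values below the highest floor raised to it, where 2.2% of all gene models did. The counts were 4 of 856 under UV (0.467%, with 1.41% of all models), 2 of 298 under heat shock (0.671%, with 1.95%) and 1 of 479 under HGF (0.209%, with 1.12%). The 11 models, named after their values were seen, were CIITA, PRIC285, APOL1, KLHDC7B, LBA1, DTX3L, RTP4, TNFAIP3, SAMD9L, TRIM56 and IFIT2, and together they held 20 of the IFNg-only sites. CIITA, which drives transcription of MHC class II genes, had 2 such sites in exon 11 (1651 nt), with scores of 3.22 and 2.71. Its expression ranked at 86.8 under IFNg and between 33.5 and 45.5 elsewhere. LBA1 had 4 such sites, with scores of 2.41 to 3.75. TNFAIP3, an inhibitor of NF-kB signalling, had 3 in an exon of 920 nt. Models under UV included ZNF232, SOX17 and IDS, the 2 under heat shock were C14orf119 and MIOS, and that under HGF was the mucin gene MUC5AC, also named after their values were seen. RTP4 ranked at the floor, shared by models without signal, under UV, heat shock and HGF, so its site could hardly be listed there. Listing and expression rank are thus not independent in these counts. The part of expression in which of these sites were listed was not tested.

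Some of the treatments' own sites were in genes that ranked high in every treatment. Where the gene model ranked at percentile 75 or higher in all 4, the highest-scoring sites under UV only were in SRGAP1 (6.45), MARCKS (6.23) and MYST3 (6.08). Those under heat shock only were in LGR4 (5.18), TAOK1, a kinase (5.04), and CDKN2B, a cell cycle inhibitor (4.96). Those under HGF only were in SEC62, a translocon subunit (6.46), CHML (5.94) and UPF2, a nonsense-mediated decay factor (5.84). Those under IFNg only were in SRCAP, a chromatin remodeller (4.51), PHLDB1 (4.35) and CHML (4.20). CHML is encoded in an exon of 7066 nt and held its HGF and IFNg sites at positions 1692 and 1226. With 1 library pair per treatment, whether a site missing elsewhere fell just below the authors' score limit there cannot be told from the table.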

How the data were processed

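Fragments of polyA+ RNA were pulled down with an antibody against m6A and sequenced next to their input, per the labels' protocols, which gave 8 libraries in 4 treatments. The authors deposited 1 table with 1 set of columns per treatment. Per the file headers it holds an expression quantile, a fraction from 0 to 1 (printed here times 100 as a percentile), and for each peak a position in the transcript, exon number, exon length, segment and the authors' deposited score. Aligner, peak caller, pooling, genome build and score formula are not given in the sources used here. All value columns could be assigned to a treatment (0 were left over).

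Members were coding peaks in exons of 400 nt or more. Peaks of a gene model within 100 nt were joined into sites by single linkage. Score ranks were percentiles within a treatment. The members, the 13 gene lists and the rules were chosen with earlier results of these data known. Named genes were the 5 exons with the most sites, the 5 longest with a site in all 4 treatments, the 10 sites with the highest lowest rank, the 3 largest gains and losses of rank and the 3 highest-scoring own sites per treatment, and list members with the most sites first; 1 library pair per treatment allowed no test. Sequences are from GENCODE 29 (GRCh38) by exact match of span length and of peak-bearing exons, in windows of 50 nt to each side. A match of the gene symbol was preferred but not required. None is printed from chromosome 8. A few genes and a sequence chosen by these rules are not reported here. The scripts ran in Python 3.11.15 with SciPy 1.17.1, NumPy 2.4.6, pandas 2.3.3 and, for plots, matplotlib 3.10.9. The joining and rank steps were tested on simulated data. Alternatives covered exon length, joining distance, gene models per symbol, expression, number of peaks, rank basis and rank difference.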

Additional observations from a re-analysis of the deposited data

How the results depend on the processing

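No paired analysis was possible because each treatment had 1 pair of libraries. Of 124 values recomputed, 56 stayed within their interval or, for counts, within 1.5 times, and 68 moved. With 1 gene model per symbol all 9 stayed. Coding peaks in long exons made up, in the order UV, heat shock, HGF and IFNg, 93.0%, 94.5%, 91.9% and 83.7% with long exons counted from 300 nt, 83.1%, 85.8%, 84.7% and 77.9% from 500 nt, and 58.9%, 61.3%, 62.4% and 57.8% from 1000 nt. They made up 81.8%, 86.0%, 82.8% and 71.9% in models at the 75th percentile or above in all 4 treatments, and 93.1%, 94.4%, 95.5% and 93.7% among peaks at or above the treatment's median score. With 5280 peaks per treatment the first 3 were 93.8%, 94.4% and 95.3%. The share of sites listed in all 4 treatments was 16.5% when joined within 50 nt, 20.9% within 200 nt, 21.9% in the highly ranked models, 16.7% with 5280 peaks each and 33.4% in the 3 treatments other than IFNg. Sites listed after 1 treatment numbered 361, 182, 243 and 128 in the highly ranked models, and 298 (UV) and 547 (IFNg) with 5280 peaks each. The share of exons with 2 or more sites was 43.3% and 35.5% when joined within 50 and 200 nt, and 36.6%, 42.7% and 51.3% from 300, 500 and 1000 nt, where the median number of sites became 2 for the last. Median scores from 1000 nt were 3.94, 3.598 and 3.27 for UV, heat shock and HGF, and 3.96, 3.63, 3.23 and 2.98 in the highly ranked models. Sites with a rank above every other treatment numbered 70, 95, 75 and 138 at 15 points and 10, 12, 8 and 28 at 40 points, and those below 104, 84, 91 and 171, and 6, 7, 15 and 36. With ranks over all listed peaks they were 11 above (heat shock), 21 above (IFNg), 21 below (UV), 54 below (heat shock) and 182 below (IFNg). The wider definitions of an exon or a difference admit more features by construction, and the cause was not tested for the others.

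Depth is unknown, so a site missing from a treatment is not shown to be unmethylated there. GENCODE matches cover 11.01% of members, and densities, motifs and edge distances describe those alone.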
